A study of Mus musculus with 2 samples.

Results

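The potassium channel genes described here are the 100 genes whose mouse symbol starts with Kcn, without the noncoding gene Kcnq1ot1, together with Abcc8 and Abcc9, the sulphonylurea receptor genes that complete the ATP-sensitive channel. They were taken by symbol from the 38924 gene IDs of the deposited files, and 287 of the 94545 transcripts belong to them. Of the symbols, 4 (Kcnab3os, Kcnd3os, Kcnmb4os1 and Kcnmb4os2) name antisense RNAs and no channel subunit. RNA came from whole pancreatic islets, picked by hand after collagenase digestion, of male CAST/EiJ mice (CAST), an inbred strain derived from wild mice, and of male C57BL/6J mice (B6), the strain of the reference genome, all 10 weeks old, fed chow and with no treatment named. Islets of both strains were kept in a buffer with 16.7 mM glucose while they were purified. Islets of 2 mice per strain were pooled, and 250 islets of each pool gave 1 library per strain. A pool cannot show how mice of one strain differ. Every ratio below therefore compares 2 libraries, with no test of the strains.

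Potassium channels set the resting voltage of a cell and end its action potentials. In the beta cell, the insulin cell of the islet, glucose metabolism raises ATP, the ATP-sensitive channel closes, the membrane depolarises and calcium enters to release insulin. Voltage-gated (Kv) and calcium-activated channels then repolarise the cell, and two-pore domain channels carry a background leak. A channel is built from pore subunits, often with accessory subunits that change its gating or its transport to the membrane.

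The CAST library held 104324631 expected counts and the B6 library 76600903. Both libraries had the hormone genes of islets: the 9 beta cell genes of a marker list together reached 535623 TPM (a transcript's share of all transcripts, scaled to a sum of 1000000, which takes length into account) in CAST and 462085 TPM in B6. Alpha cell genes had a median log2 ratio of CAST over B6 of -0.67 over 8 genes, delta and PP cell genes -0.57 over 6, and beta cell genes 0.11 over 9. Within the delta and PP list the genes went both ways, with the delta cell genes Sst at -0.90, Hhex at -0.79 and Ghsr at -1.37, and Ppy at 0.64 and Pyy at 0.04. Acinar genes had a median of 1.86 over 10 genes, stellate cell and fibroblast genes 1.28 over 7, duct genes 1.12 over 5, Schwann cell and neuron genes 0.51 over 8, endothelial genes 0.41 over 7 and leukocyte genes 0.35 over 6. No listed marker was without counts. Markers of these cells therefore differ between the 2 libraries, and their part in the ratios below was not tested. In whole islets, fewer cells of a type and less RNA per cell cannot be told apart. The reference is a B6 genome for both libraries, and the effect of CAST variants on the ratio of a gene was not tested.

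Of the 100 genes, 63 had 100 or more counts over both libraries and so a ratio that is read here. Another 15 had 20 to 99 counts, 15 had 1 to 19, and 7 had none in either library (Kcna10, Kcnd3os, Kcne1, Kcnk18, Kcnmb4os1, Kcns2 and Kcnv1); a count of 0 allows up to 3 counts per library. At a level of 1 TPM or more, 37 were detected in CAST and 38 in B6, of which 32 in both. Together the 100 genes summed to 567 TPM in CAST and 877 TPM in B6. Abcc8, Kcnk16, Kcnj11, Kcnmb2 and Kcnh2 made up 74.9% of that sum in CAST and 73.7% in B6. TPM is a share of all transcripts, and the median log2 ratio of all genes by TPM (with 1 added) was itself -0.26, so ratios are given on counts scaled with TMM factors, where the median of all genes was 0.02.

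By family, the 2 sulphonylurea receptor genes had the highest summed level, with 206 TPM in CAST and 319 TPM in B6. The 14 two-pore domain genes (Kcnk) followed with 114 TPM in CAST and 187 TPM in B6. The 15 inward rectifier genes (Kcnj) had 62.96 TPM in CAST and 80.4 TPM in B6, and the BK channel beta subunit family (Kcnmb) 54.2 TPM in CAST and 63.5 TPM in B6. The Kcnh family of voltage-gated channels had 48.9 TPM in CAST and 81.6 TPM in B6. The calcium-binding Kcnip subunits had 6.51 TPM in CAST and 49.4 TPM in B6, the widest gap among the families that reached 5 TPM in either library. Kcnip1 carried most of it: without that gene the family summed to 5.85 TPM in CAST and 10.2 TPM in B6. Kcne was among the families with the higher sum in CAST, with 3.52 TPM in CAST and 2.18 TPM in B6.

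**Figure D1:**
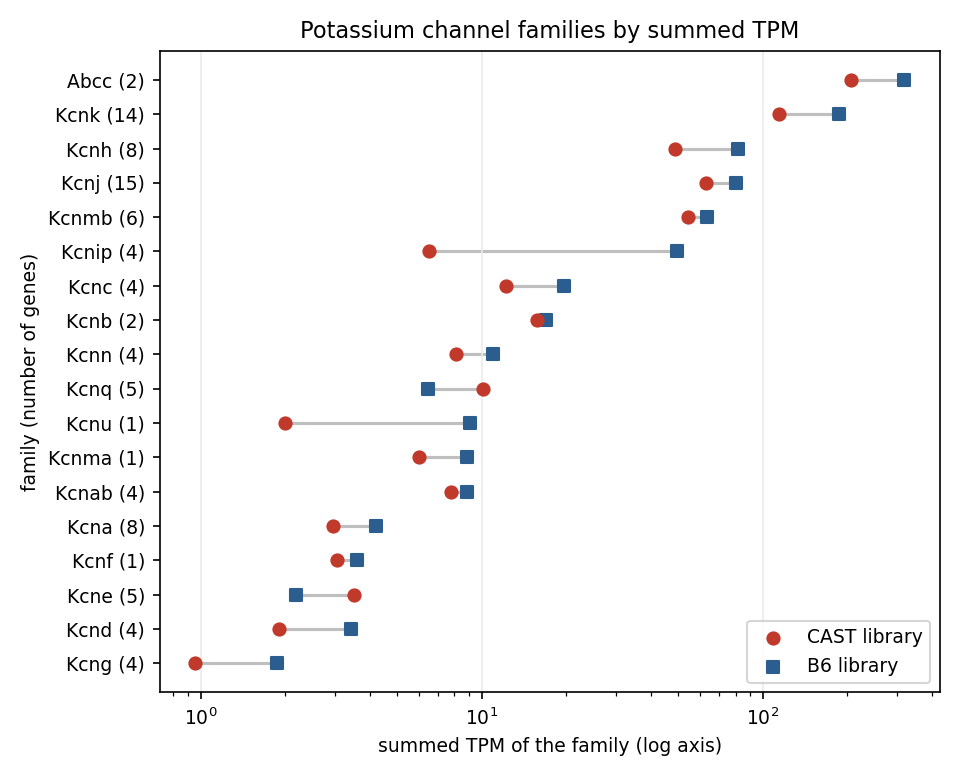
Summed TPM of each potassium channel family that reached 1 TPM in either library, on a log axis, for the CAST library (red circles) and the B6 library (blue squares), with the number of genes per family in brackets. There is 1 library per strain and no error bar. Most families lie to the left in CAST, Kcnip most of all, with 6.51 TPM in CAST and 49.4 TPM in B6 (5.85 TPM in CAST and 10.2 TPM in B6 without Kcnip1). Genes at large lie to the left too, as the median log2 ratio of all genes by TPM with 1 added was -0.26.

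Of the 63 genes with a ratio, 8 (12.7%) were past 2-fold toward CAST, against 7.18% of all 14768 genes with that many counts, and 12 (19.0%) were past 2-fold toward B6, against 5.99% of all genes. The other 43 lay within 2-fold. Either way it was 13.2% of all genes and 31.7% of the channel genes. Scaled by total counts, 4 were past 2-fold toward CAST and 13 toward B6, so that 23.5% of the genes past 2-fold were higher in CAST in place of 40.0%. The genes that came under 2-fold with total counts were Kcna1, Kcne4, Kcnj8 and Kcnk5, and Kcnn1 passed it toward B6 (-1.02). By TPM with 1 added, which understates changes of low genes, 6 of the 20 stayed past 2-fold. The median log2 ratio was -0.17, against 0.02 over all genes. The 2-fold counts were also taken by level. Among the 18 that reached 5 TPM in either library, 4 (22.2%) were past 2-fold, against 7.54% of all 9803 genes at that level. Of these 4, 1 was higher in CAST (4.21% of all genes at that level), and Kcnip1, Kcnj12 and Kcnu1 were higher in B6 (3.33%). Among the 45 below it, 16 (35.6%) were past 2-fold, against 24.3% of 4965 genes, 7 toward CAST (13.1% of those genes) and 9 toward B6 (11.3%). Across the 63 genes the order of levels was alike in both libraries, with a Spearman rho of TPM of 0.83, as a description across genes; over all 14768 genes it was 0.93.

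**Figure D2:**
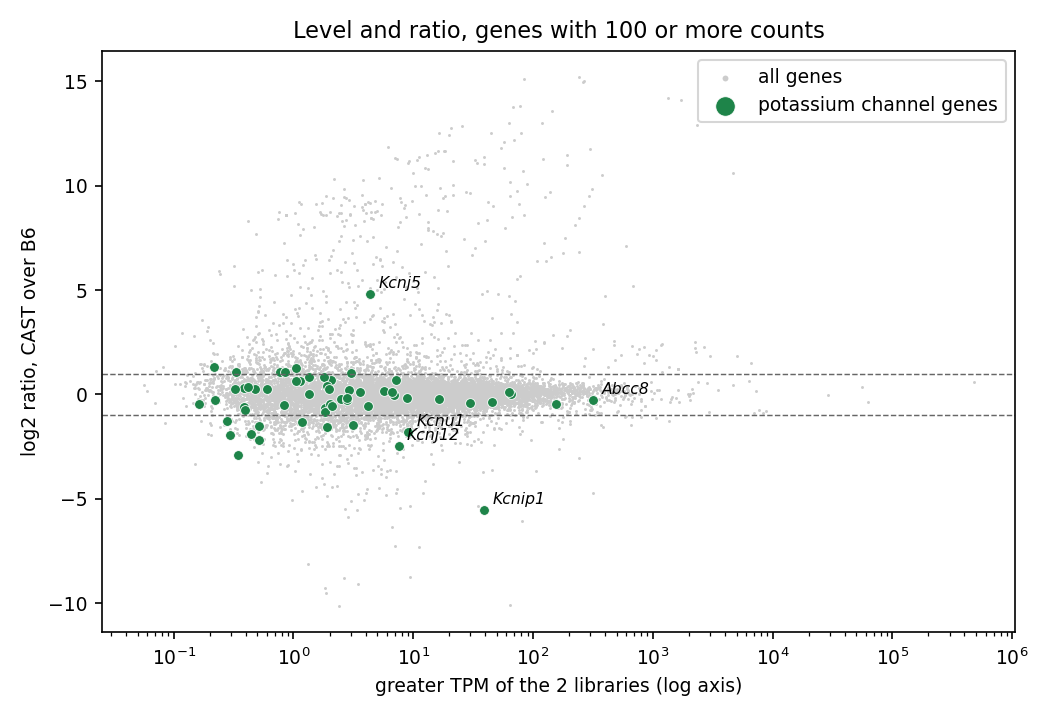
Log2 ratio of CAST over B6 on TMM-scaled counts against the greater TPM of the 2 libraries (log axis), for all genes with 100 or more counts (grey) and 59 potassium channel genes among them (green). Dashed lines mark 2-fold. Kcnj5 stands above the band and Kcnip1, Kcnj12 and Kcnu1 below it, while Abcc8, the most abundant, is at -0.29.

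The ATP-sensitive channel of islet cells is made of the pore subunit encoded by Kcnj11 and the sulphonylurea receptor encoded by Abcc8, the target of sulphonylurea drugs. Abcc8 (chromosome 7, 46104523 to 46180033, GRCm38) had 204.7 TPM in CAST and 317.7 TPM in B6, from 100252 counts in CAST and 100234 in B6. Its log2 ratio was -0.29 (95% counting interval -0.30 to -0.28), so it was 1.22-fold higher in B6. Kcnj11, which lies 3759 bases away on the same strand, had 51.8 TPM in CAST and 65.4 TPM in B6. Its log2 ratio on scaled counts was 0.01 (-0.05 to 0.07), and -0.15 with total counts. The level of the receptor transcript was thus 3.96 times that of the pore in CAST and 4.86 times in B6. The only Kcnj11 transcript quantified, Kcnj11-201, is annotated here with 917 bases, from 46098873 to 46100764. The gene runs from 46093953 to 46100764, so this transcript leaves out part of it. The length used for its TPM is not given, and the proportion of receptor to pore depends on it.

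The related pair Kcnj8 and Abcc9 forms the ATP-sensitive channel of vessels. It was low and higher in CAST. Kcnj8 had 163 counts in CAST and 62 in B6, 2.14-fold higher in CAST (log2 1.10, 0.68 to 1.55), but under 2-fold with total counts (0.94) and by TPM with 1 added (0.28). Abcc9, 16248 bases from it, had 837 counts in CAST and 443 in B6 (log2 0.63, 0.46 to 0.80). Levels stayed low, with 0.769 TPM of Kcnj8 in CAST and 0.454 TPM in B6, and 1.14 TPM of Abcc9 in CAST and 0.939 TPM in B6. The 7 pericyte and smooth muscle markers summed to 45.6 TPM in CAST and 54.2 TPM in B6, with ratios from -0.04 (Rgs5) to 0.62 (Myh11); their part in the ratios of this pair was not tested.

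Kcnip1 showed the widest gap of the 63 genes. It encodes a calcium-binding subunit that joins Kv4 pores, the pores of the fast inactivating A-type current, and changes their inactivation and surface expression. It had 126 counts in CAST and 4816 in B6, which made it 46.5-fold higher in B6 (log2 -5.54, -5.81 to -5.29). By level it was 0.657 TPM in CAST and 39.2 TPM in B6, rank 43 of the 100 genes in CAST and rank 6 in B6. No near-identical copy was found, and no exon of another annotated gene overlaps its exons.

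The gene (chromosome 11, 33629339 to 33993152, minus strand) is transcribed from several start sites, and counts were lower in CAST at both that carry them. The 3 transcripts that begin within 500 bases of the RefSeq start at 33843686 had 94.5 expected counts in CAST and 3732 in B6. The 2 that begin within 500 bases of the start at 33993193 had 31.5 in CAST and 1084 in B6. The first start thus held 75.0% of the gene's counts in CAST and 77.5% in B6, and the main transcript, the coding Kcnip1-201, held 75.9% of the gene's TPM in CAST and 83.0% in B6. A RefSeq start at 33680682 has no transcript in the files within 500 bases. Among the channel genes, Kcnip1 had the widest ratio toward B6 and Kcnj5 the widest toward CAST. For this reason the promoters of the Kcnip1 starts that carry counts, and that of Kcnj5, are shown from RefSeq (GRCm38.p6). Each runs from 250 bases before to 50 bases after the start on the gene's strand, with the transcribed bases in capitals.
Kcnip1, inner start, chr11:33843637-33843936, minus strand: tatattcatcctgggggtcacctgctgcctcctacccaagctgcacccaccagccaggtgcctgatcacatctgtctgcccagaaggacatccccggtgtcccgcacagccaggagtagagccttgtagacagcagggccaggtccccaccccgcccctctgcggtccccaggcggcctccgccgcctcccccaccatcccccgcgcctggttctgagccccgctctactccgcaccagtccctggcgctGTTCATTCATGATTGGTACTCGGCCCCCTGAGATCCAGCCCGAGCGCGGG
Kcnip1, outer start, chr11:33993144-33993443, minus strand: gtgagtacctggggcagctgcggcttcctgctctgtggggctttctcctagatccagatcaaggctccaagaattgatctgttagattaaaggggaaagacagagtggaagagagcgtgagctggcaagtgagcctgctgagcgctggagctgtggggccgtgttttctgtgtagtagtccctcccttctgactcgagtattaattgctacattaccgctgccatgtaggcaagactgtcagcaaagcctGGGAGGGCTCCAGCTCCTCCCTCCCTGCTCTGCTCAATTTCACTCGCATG
Kcnj5, chr9:32344295-32344594, minus strand: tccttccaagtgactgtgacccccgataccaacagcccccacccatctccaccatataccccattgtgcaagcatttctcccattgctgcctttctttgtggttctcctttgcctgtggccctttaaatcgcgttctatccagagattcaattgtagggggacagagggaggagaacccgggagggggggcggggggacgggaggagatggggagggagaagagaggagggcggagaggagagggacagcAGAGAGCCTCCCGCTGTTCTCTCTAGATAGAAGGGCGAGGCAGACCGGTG
The inner Kcnip1 promoter holds 16 CG dinucleotides, the outer one 7 and that of Kcnj5 10. Of all 32851 promoters in the table, 33.0% hold at least 16, 52.1% at least 7 and 43.5% at least 10. These are the reference letters, so they describe B6; the CAST letters were not used here.

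**Figure D3:**
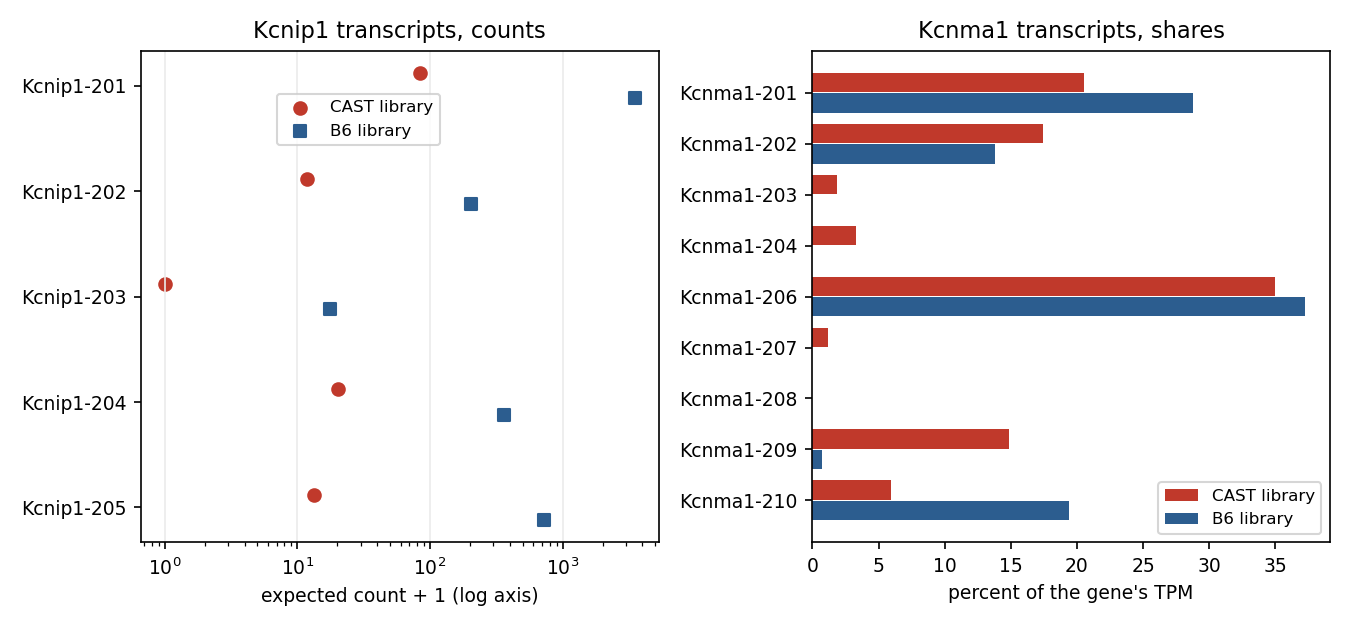
Left, expected counts (with 1 added, log axis) of the 5 annotated Kcnip1 transcripts in the CAST library (red) and the B6 library (blue). Each is lower in CAST, Kcnip1-201 at 83.7 counts in CAST and 3513 in B6. Right, the share of the gene's TPM held by each transcript of the BK channel gene Kcnma1, where Kcnma1-209 holds 14.9% in CAST and 0.742% in B6.

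The other Kv4 subunits had ratios below 0 too, apart from Kcnip3. Kcnip2 had 169 counts in CAST and 382 in B6 (log2 -1.46, -1.74 to -1.20), and Kcnip4 502 in CAST and 608 in B6 (-0.56, -0.74 to -0.39). Kcnip3, which also acts as a transcriptional repressor known as DREAM, had 676 counts in CAST and 481 in B6 (0.20, and -0.10 by TPM). The 3 Kv4 pore genes were each below 0. Kcnd1, the most abundant, was at 1.752 TPM in CAST and 2.80 TPM in B6 (-0.28, -0.41 to -0.14). Kcnd2 had 18 counts in CAST and 113 in B6, 7.47-fold higher in B6 (-2.90, -3.75 to -2.21), and Kcnd3 64 in CAST and 129 in B6 (-1.29, -1.76 to -0.86). Both were low, Kcnd2 at 0.036 TPM in CAST and 0.344 TPM in B6 and Kcnd3 at 0.106 TPM in CAST and 0.281 TPM in B6. Of the transmembrane partners of Kv4, Dpp6 was at 6.15 TPM in CAST and 13.8 TPM in B6 (-0.82) and Dpp10 at 3.32 TPM in CAST and 8.11 TPM in B6 (-1.10).

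Among inward rectifiers, Kcnj5 went the other way from Kcnip1. It encodes a subunit of the G protein-gated channels, through which somatostatin and adrenergic receptors hyperpolarise endocrine cells. Kcnj5 (chromosome 9, 32314707 to 32344350) had 1948 counts in CAST and 57 in B6, 27.8-fold higher in CAST (log2 4.79, 4.43 to 5.21), and reached 4.39 TPM in CAST and 0.199 TPM in B6. The other subunits of these channels lay nearer to 0. Kcnj3 had 1.33 TPM in CAST and 2.03 TPM in B6 (-0.44, -0.63 to -0.26), and Kcnj6 1.80 TPM in CAST and 2.81 TPM in B6 (-0.16, -0.34 to 0.03). Kcnj9 had only 13 counts in CAST and 11 in B6. By level, Kcnj5 was thus the highest of these 4 genes in CAST, and in B6 it lay below Kcnj3 and Kcnj6. Its neighbour Kcnj1, a kidney channel gene 28143 bases away, had 6 counts in CAST and 0 in B6, too few for a ratio.

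Kcnj12, which encodes a strong inward rectifier, had 236 counts in CAST and 1082 in B6. It was 5.59-fold higher in B6 (log2 -2.48, -2.70 to -2.28), at 1.06 TPM in CAST and 7.55 TPM in B6. Its relatives Kcnj2 and Kcnj4 had 108 and 217 counts in CAST, against 133 and 112 in B6, with log2 ratios of -0.59 and 0.66. Of the other inward rectifiers, Kcnj10 had 77 counts in each library, and Kcnj13, Kcnj14, Kcnj15 and Kcnj16 each had fewer than 100 over both.

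**Figure D4:**
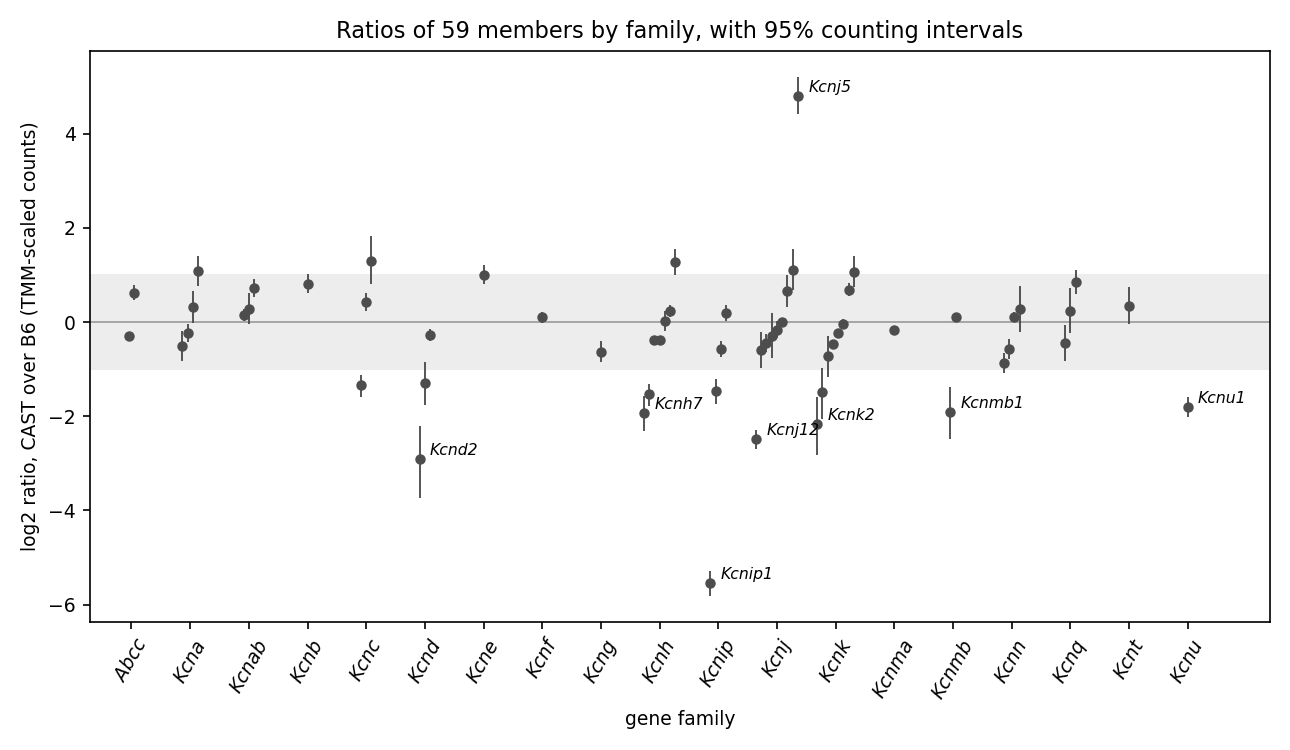
Log2 ratio of CAST over B6 (TMM-scaled counts) of 59 potassium channel genes with 100 or more counts, by family. Bars are 95% exact intervals of counting error, with 1 library per strain, and the grey band marks less than 2-fold. Most points lie in the band; Kcnj5 at 4.79 and Kcnip1 at -5.54 lie farthest from it.

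Kcnb2, a delayed rectifier pore gene, had 1.81 TPM in CAST and 1.19 TPM in B6 (0.82, 0.63 to 1.01). Of the silent Kv subunits, which make no channel of their own and join the Kcnb pores, Kcnf1 had 3.05 TPM in CAST and 3.61 TPM in B6 (0.10, and -0.05 with total counts), and Kcng3 0.936 TPM in CAST and 1.84 TPM in B6 (-0.63). Kcng1, Kcng2, Kcng4, Kcns1 and Kcnv2 had 5 counts or fewer over both libraries. Kcns3 had 72 counts in CAST and 13 in B6, too few for a ratio by the count minimum.

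The ether-a-go-go related genes Kcnh2 and Kcnh6 were the most abundant of the Kcnh family. Kcnh2 had 26.2 TPM in CAST and 45.4 TPM in B6 (log2 -0.37, -0.41 to -0.33), and Kcnh6 17.96 TPM in CAST and 29.97 TPM in B6 (-0.39, -0.44 to -0.34). They kept their proportion, with Kcnh2 at 1.46 times the TPM of Kcnh6 in CAST and 1.51 times in B6. Low members of the family went both ways. Kcnh5 had 424 counts in CAST and 144 in B6 (1.27, 0.99 to 1.55). Kcnh8 had 219 in CAST and 521 in B6 (-1.54, -1.77 to -1.31), and Kcnh7 80 in CAST and 250 in B6 (-1.93, -2.31 to -1.56). The value of Kcnh7 is uncertain, because 696 of its exonic bases overlap Gca on the other strand, Gca itself had 686 counts in CAST and 1719 in B6, and no strand setting is given.

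In the Kcnq family, Kcnq1, which forms slow delayed rectifier channels, had 397 counts in CAST and 181 in B6 (log2 0.84, 0.59 to 1.11), or 1.34 TPM in CAST and 0.948 TPM in B6. Kcnq3 had 107 counts in CAST and 119 in B6 (-0.44, -0.83 to -0.05).

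In the Kcnc family of fast delayed rectifiers, Kcnc1 had 139 counts in CAST and 46 in B6 (log2 1.30, 0.82 to 1.82), and Kcnc2 224 in CAST and 466 in B6 (-1.34, -1.58 to -1.11). Among the Shaker-type genes (Kcna), Kcna5 was highest at 1.68 TPM in CAST and 2.51 TPM in B6 (-0.23). Kcna1 had 298 counts in CAST and 115 in B6 (1.08, 0.77 to 1.41, but 0.93 with total counts and 0.15 by TPM), while its neighbour Kcna6 was at 0.32 by TMM and -0.04 by TPM.

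Of the accessory subunits outside Kcnip, Kcne4, which inhibits several Kv pores, had 717 counts in CAST and 291 in B6 (log2 1.01, 0.81 to 1.21). It sat at the 2-fold line, and below it with total counts (0.85) and by TPM (0.47). The cytoplasmic beta subunits were within 2-fold: Kcnab3 at 4.97 TPM in CAST and 5.67 TPM in B6 (0.15, and -0.16 by TPM), Kcnab2 at 2.05 TPM in CAST and 1.753 TPM in B6, and Kcnab1 at 0.604 TPM in CAST and 0.595 TPM in B6. Kcnab1, with 186 counts in CAST and 125 in B6, differed in how its reads were divided among transcripts. No error of this division comes with the values. The coding Kcnab1-201 held 50.1% of the gene's TPM in CAST and 93.9% in B6, and the noncoding Kcnab1-204 43.8% in CAST and none in B6, from 73.7 expected counts in CAST and 0 in B6.

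Of the two-pore domain genes, Kcnk16, a channel gene known for its high expression in islets, was the second most abundant of all 100 genes in both libraries. It had 88.9 TPM in CAST and 155.7 TPM in B6, from 7152 counts in CAST and 8052 in B6, 1.38-fold higher in B6 (log2 -0.46, -0.51 to -0.41). Kcnk1 had 11.1 TPM in CAST and 16.5 TPM in B6 (-0.22), Kcnk3, an acid-sensitive channel gene, 5.30 TPM in CAST and 6.89 TPM in B6 (-0.03), and Kcnk12 7.19 TPM in CAST and 5.68 TPM in B6 (0.69). The genes past 2-fold in this family were all low. Kcnk2, a channel gated by stretch and lipids, had 30 counts in CAST and 112 in B6 (-2.17, -2.82 to -1.60), and Kcnk13 43 in CAST and 100 in B6 (-1.49, -2.06 to -0.98). Kcnk5 had 281 counts in CAST and 110 in B6 (1.06, 0.74 to 1.40), which came under 2-fold with total counts (0.90) and by TPM with 1 added (0.29). The exons of Kcnk2 overlap an antisense gene over 604 bases, so its reads are uncertain.

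**Figure D5:**
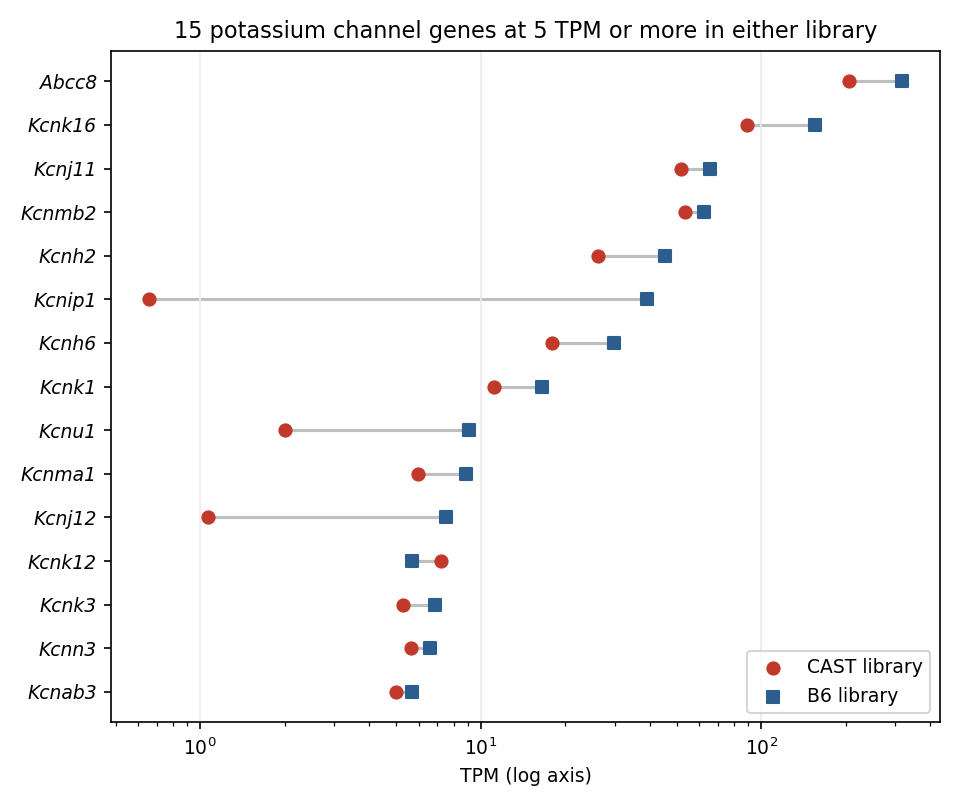
TPM (log axis) of 15 potassium channel genes that reached 5 TPM in the CAST library (red circles) or the B6 library (blue squares), 1 library per strain. Kcnip1 has the longest gap, 0.657 TPM in CAST and 39.2 TPM in B6, and Kcnk12 is the gene drawn with the higher TPM in CAST.

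In the BK channel, the beta subunit gene Kcnmb2 had a higher level than the pore gene, and the other beta subunit genes a lower one. Kcnma1, the pore of the large-conductance BK channel, had 5.97 TPM in CAST and 8.88 TPM in B6 (log2 -0.17, -0.26 to -0.09). Kcnmb2, which makes the BK channel inactivate, had 53.5 TPM in CAST and 62.6 TPM in B6. On scaled counts Kcnmb2 differed by 0.12 (0.08 to 0.15), and by -0.04 with total counts. Its TPM was 8.96 times that of Kcnma1 in CAST and 7.05 times in B6. Kcnmb1, the beta subunit of smooth muscle, lies within the Kcnip1 gene on the other strand and had 38 counts in CAST and 118 in B6 (-1.91, -2.49 to -1.39). The exons of these 2 genes do not overlap in the annotation. The 7 pericyte and smooth muscle markers had a median log2 ratio of 0.22, from -0.04 (Rgs5) to 0.62 (Myh11). Their part in the ratio of Kcnmb1 was not tested.

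Splice forms of Kcnma1 were divided differently in the 2 libraries. Kcnma1-206 was the main transcript in both, with 34.9% of the gene's TPM in CAST and 37.3% in B6. Kcnma1-209 had 403 expected counts in CAST and 19.3 in B6, and Kcnma1-210 had 110 in CAST and 345.8 in B6. No error of this division of reads among similar transcripts comes with the values. Of the small-conductance genes, Kcnn3 led with 5.64 TPM in CAST and 6.60 TPM in B6 (0.11, and -0.04 with total counts), and Kcnn1 and Kcnn2 were at -0.86 and -0.57. The sodium-activated Kcnt1 had 137 counts in CAST and 88 in B6 (0.35 by TMM and -0.09 by TPM). Kcnmb3, a further BK beta subunit gene, had 12 counts in CAST and 0 in B6, too few for a ratio. Kcnrg, a regulator of Kv channels, had 8 counts in CAST and 12 in B6.

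Kcnu1, known as a potassium channel of sperm, had 243 counts in CAST and 693 in B6, 3.48-fold higher in B6 (log2 -1.80, -2.02 to -1.59). In B6 it reached 9.07 TPM, rank 11 of the 100 genes, and in CAST 1.999 TPM. The counts did not fall on the full transcript. Kcnu1-201, with 27 exons, had 0 expected counts in CAST and 1.64 in B6. Kcnu1-202, with 8 exons, had 217 in CAST and 601 in B6, and Kcnu1-203, with 6, had 26.3 in CAST and 90.7 in B6. Both short transcripts begin at about the same place on chromosome 8 (25911680 and 25911692), far inside the gene (25849623 to 25937939), and the annotation calls both protein coding.

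Main transcripts could be compared in 29 channel genes, those with several transcripts and at least 100 counts per library, and 27 of them (93.1%) had the same one in CAST and B6. Among all 8981 genes that met these conditions the share was 91.9%. The exceptions were Kcnip4, whose Kcnip4-208 held 51.0% of TPM in CAST and 32.8% in B6, and Kcnb2. In Kcnb2 the B6 main transcript, Kcnb2-202, held 39.8% of TPM in CAST and 51.8% in B6. The share it lost was under 30 points in both genes.

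Other genes of islet excitability, taken as a list of 38, were within 2-fold apart from the sodium channel gene Scn3a, which had 933 counts in CAST and 1756 in B6 (log2 -1.20, -1.32 to -1.09). Their median was 0.09. Of all 14768 genes with 100 or more counts, 13.2% were past 2-fold either way. The calcium channel pores Cacna1a (0.20), Cacna1c (0.33) and Cacna1d (-0.13) lay near 0, as did the low Cacna1e (0.16) and Cacna1g (0.08). Cacna1h, a further pore, had 639 counts in CAST and 1007 in B6 (-0.94, -1.09 to -0.80). Of 10 channel partners without a Kcn symbol 7 had 100 or more counts. Beside Dpp10, the one past 2-fold was Lrrc38, which encodes a BK channel gamma subunit and had 497 counts in CAST and 46 in B6 (3.13, 2.71 to 3.61). Its level was 2.20 TPM in CAST and 0.317 TPM in B6.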

How the data were processed

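Total islet RNA was sequenced in 1 library of CAST and 1 of B6. The authors quantified reads with RSEM on GRCm38, per the submitters' processing notes; of versions, annotation release and strand setting, the sources used here say nothing. The first value per transcript in the deposited files is an expected count. The second deposited value is read as the fraction of all transcripts, since it sums to 1; multiplied by 1000000 it is TPM.

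Each gene's value is the rounded sum of its transcripts' expected counts, and IDs were matched to symbols in GENCODE M21 (37607 of 38924 matched). TMM factors from edgeR 4.0.16 (R 4.3.3) were 0.947 for CAST and 1.056 for B6. Log2 ratios put CAST over B6, with 0.5 added to each scaled count, and are read where the libraries together held at least 100 counts. Intervals (95%) are exact Clopper-Pearson intervals for the part of each gene's counts that came from CAST. They and the floor of 3 counts per library hold counting error alone, and reads are not independent molecules. Near-identical copies were sought with minimap2 2.31 (95% identity over 200 bases and 50% of the shorter transcript); 1 of the 100 genes, Kcna6, had one, with 2 counts in CAST and 0 in B6. Exons of 21 of the 63 genes with a ratio overlap those of another gene.

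The ratio was also tried on simulated counts that varied by counting error alone. It came out at least 2-fold for 98.0% of 50 genes drawn at 2.5-fold and for 0% of 14568 unchanged genes. No variation between mice, pools or libraries was drawn, so these shares give no rate of false calls between the strains. Alternatives used DESeq2 1.42.0 size factors, total counts, TPM with 1 added, other count filters and thinning. Genes are named with values where they reached 5 TPM, were at least 2-fold apart or led their family; others named were chosen after their values were seen. The members and lists were chosen with earlier results of these data known. A few genes covered by the naming rule are not reported here or drawn in the plots of genes.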

Additional observations from a re-analysis of the deposited data

How the results depend on the processing

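With 1 library per strain no library could be left out. No paired analysis was possible because each strain had 1 library. DESeq2 size factors, added near-identical copies and thinning of CAST to the B6 total left all 20 genes past 2-fold in place; 16 stayed with total counts and 6 by TPM with 1 added, and none of the 20 changed sign. Of the 63 genes, 6 changed sign with total counts, 13 by TPM and 1 with thinning. Leaving out the TMM factors, as total counts do, lowered each ratio by nearly the same amount. The median of all genes was 0.02 with TMM factors and -0.14 with total counts. The genes that changed sign with total counts had TMM ratios from 0.01 (Kcnj11) to 0.15 (Kcnab3). The cause of the sign changes by TPM and with thinning was not tested.

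Genes at least 2-fold higher in CAST (8) numbered 4 with total counts, 2 by TPM and 4 at 500 or more counts; those higher in B6 (12) numbered 4 by TPM and 6 at 500 or more. The median of the genes, -0.17, was -0.33 with total counts. Family medians with TMM factors were -0.01 in Kcnc, -0.37 in Kcnh and -0.34 in Kcnk. In Kcna the median was 0.05, in Kcnn -0.23 and in Kcnq 0.24. Family medians with total counts were -0.17 in Kcnc, -0.53 in Kcnh and -0.50 in Kcnk. By TPM they were -0.31 in Kcnc and -0.28 in Kcnh. At 20 or more counts they were -0.29 in Kcnh, -0.46 in Kcnk and -0.37 in Kcna. At 500 or more they were -0.44 in Kcnc, -0.17 in Kcnh, -0.13 in Kcnk, -0.23 in Kcna, -0.57 in Kcnn and 0.84 in Kcnq.

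Without its most abundant gene, the summed TPM in CAST and in B6 was 1.14 and 0.939 for Abcc, 2.80 and 3.17 for Kcnab, 1.81 and 1.19 for Kcnb, 2.502 and 3.09 for Kcnc, 22.6 and 36.2 for Kcnh, 5.85 and 10.2 for Kcnip, 11.2 and 15.0 for Kcnj, 25.1 and 31.3 for Kcnk, 0.648 and 0.824 for Kcnmb, 2.47 and 4.40 for Kcnn, and 3.92 and 4.75 for Kcnq. With protein-coding transcripts alone it was 6.02 and 6.48 for Kcnab, 14.6 and 16.2 for Kcnb, 10.8 and 17.7 for Kcnc, 43.8 and 69.9 for Kcnh, and 9.18 and 5.97 for Kcnq; in B6 it was 44.0 for Kcnip and 10.5 for Kcnn. Depth limits the genes under 100 counts, whose intervals are wide.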
